A study of Mus musculus with 12 samples.

Results

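Transcript levels of 6 genes of liver glycogen metabolism and of pyruvate kinase were followed across 3 groups of mice. They are Ugp2 and Gbe1, which act in glycogen synthesis, Ppp1r3c and Ppp1r3g, which target a phosphatase to glycogen, Phka2, a subunit of the kinase that starts glycogen breakdown, and Pklr, the pyruvate kinase of liver and red cells. They are 6 of the 17742 genes measured, and they were chosen by name with earlier results of these data known. Liver RNA was hybridised in a single colour to 12 mouse OneArray microarrays, which held 6 samples, 2 per group, with 2 arrays for each sample. Control mice had no treatment, and the STZ group had diabetes induced with streptozotocin, a toxin of the insulin-producing beta cells. The STZ+MENS group had the same diabetes and also received MENS, an abbreviation the labels do not spell out, from a device on a printed circuit board for 1 h a day on 5 days a week over 6 weeks. All groups are labelled as 8 week mice, without saying at which point of the experiment, and no strain, sex or feeding state is given. Nothing states that a sample is 1 mouse, and a p-value here speaks of the variation among these samples alone.

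The liver stores glucose as glycogen after a meal and releases it during fasting. Ugp2 makes UDP-glucose, the sugar donor, glycogen synthase lengthens the chains, and Gbe1 puts in the branches. Protein phosphatase 1 turns the synthase on and phosphorylase off, and its regulatory subunits, among them Ppp1r3c and Ppp1r3g, bring it to the glycogen particle. Phosphorylase kinase, of which Phka2 is the liver alpha subunit, turns phosphorylase on. Pklr carries out the last step of glycolysis, and its transcription in liver is known to respond to glucose through the carbohydrate response element binding protein, encoded by Mlxipl, and to insulin and glucagon.

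The promoters of Ppp1r3c, Ppp1r3g and Pklr are shown because they held the regulatory motifs found among the members. The windows are from RefSeq on build GRCm38.p6 and run from 250 bases before to 50 bases after a transcription start. All 6 members were matched, with 8 windows. That of Ppp1r3c lies at chr19:36736555-36736854 on the minus strand, that of Ppp1r3g at chr13:35967656-35967955 on the plus strand, and that of the downstream start of Pklr at chr3:89136373-89136672 on the plus strand. Capitals mark the motif matches.
Ppp1r3c promoter: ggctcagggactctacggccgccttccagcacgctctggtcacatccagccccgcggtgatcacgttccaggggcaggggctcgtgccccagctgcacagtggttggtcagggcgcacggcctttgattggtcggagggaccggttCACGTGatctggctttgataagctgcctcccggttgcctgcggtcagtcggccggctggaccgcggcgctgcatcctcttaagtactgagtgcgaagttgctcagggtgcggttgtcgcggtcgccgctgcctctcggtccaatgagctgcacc
Ppp1r3g promoter: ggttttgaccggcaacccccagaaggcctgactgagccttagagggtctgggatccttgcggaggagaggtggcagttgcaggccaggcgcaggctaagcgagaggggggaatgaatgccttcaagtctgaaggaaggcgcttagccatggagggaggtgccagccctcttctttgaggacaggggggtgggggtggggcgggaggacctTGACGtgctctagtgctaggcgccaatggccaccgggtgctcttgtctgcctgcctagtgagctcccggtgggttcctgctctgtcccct
Pklr promoter, downstream start: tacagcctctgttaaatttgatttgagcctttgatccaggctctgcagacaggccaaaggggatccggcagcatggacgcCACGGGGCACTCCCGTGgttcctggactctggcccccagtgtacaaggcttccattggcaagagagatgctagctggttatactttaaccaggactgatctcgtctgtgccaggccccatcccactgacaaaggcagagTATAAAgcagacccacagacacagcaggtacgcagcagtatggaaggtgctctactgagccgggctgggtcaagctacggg
Both strands were searched for 5 motifs of known liver or core promoter regulators. The E-box, with the letters CACGTG, lay in Ppp1r3c at positions -104 to -99 from the start, and 7.15% of all 32851 promoter windows of this length held one. The half-site of the cyclic AMP response element, with the letters TGACG, lay in Ppp1r3g at -40 to -36, and 20.8% of windows held that motif. The Pklr window held the letters TATAAA of the core promoter at -31 to -26, present in 13.6% of windows. It also held a match to the consensus carbohydrate response element at -170 to -154. That element was found in 39 windows, or 0.119%, and its search was added after the Pklr sequence had been read. The windows of Gbe1, Phka2 and Ugp2 and that of the upstream start of Pklr held none of these motifs. The forkhead site, with the letters TGTTTAC and present in 3.65% of windows, was in none of the members' windows. A match says only that these letters are there.

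All levels are on the log2(intensity + 50) scale, with the 2 arrays of a sample averaged, and differences are given with the standard error of a limma fit over all 3 groups. An adjusted p is after the Benjamini-Hochberg correction over all 17742 genes, with a threshold of 0.05. The arrays had nearly the same median intensity, from 769 to 770. Arrays of a sample correlated at 0.986 to 0.996 over all genes, samples of a group at 0.976 to 0.988, and samples of different groups at 0.958 to 0.985. The median standard deviation between the samples of a group was 0.12 in STZ, 0.13 in control and 0.15 in STZ+MENS. Sample 2 of STZ+MENS had the least alike arrays, with a median gap of 0.19 between them. Of 12 hepatocyte markers 10 were measured, and in each sample their summed intensity lay between 2864751 and 3421749. The deposited values have nearly the same distribution on each array, which bounds how far a sum over such bright genes can differ. The number of samples limits the precision of every value below.

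No member passed the adjusted threshold in any of the 3 comparisons. The members' levels followed different patterns. Ppp1r3c, Gbe1 and Ugp2 were highest in the STZ samples, Phka2 and Pklr were highest in the STZ+MENS samples, and Ppp1r3g was highest in the control samples.

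**Figure D1:**
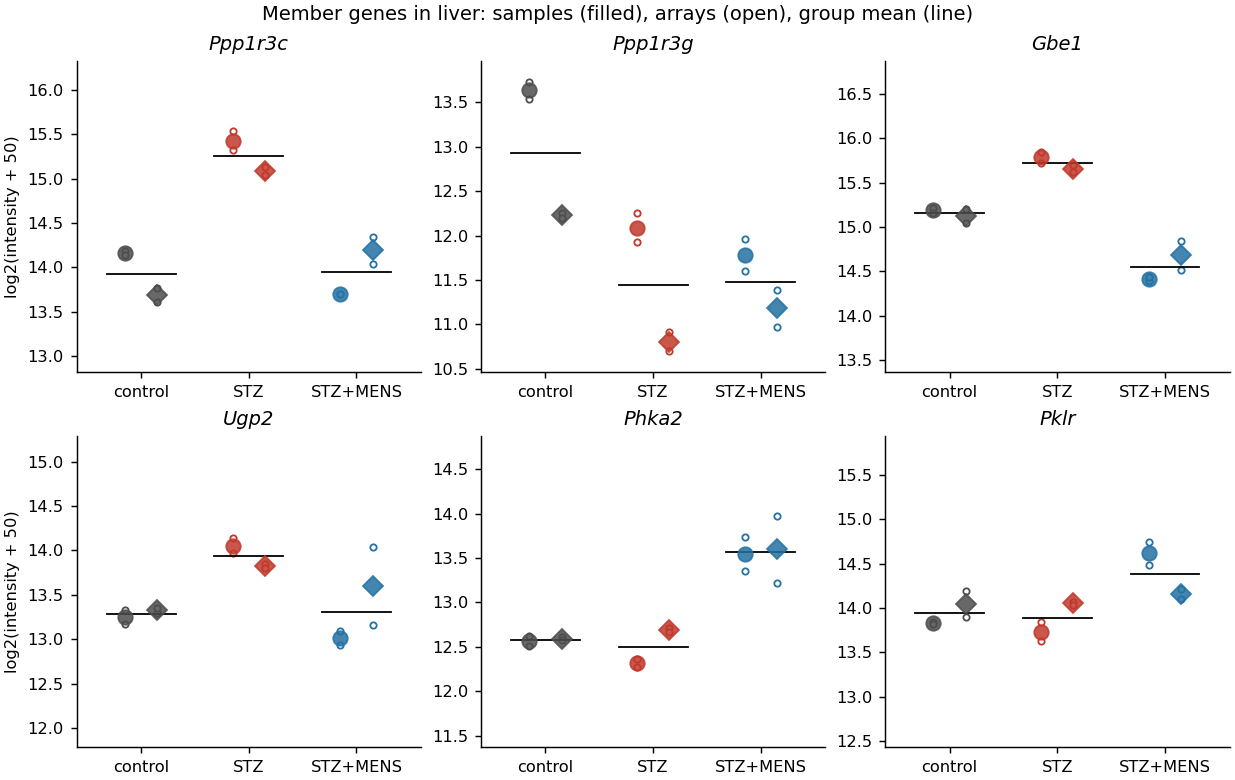
Levels of the 6 members on the log2(intensity + 50) scale, 1 panel per gene, with a filled symbol for each sample, open symbols for its 2 arrays and a line at each group's mean. The STZ samples of Ppp1r3c, Gbe1 and Ugp2 lie above all other samples of their panels, as do the STZ+MENS samples of Phka2 and Pklr and the control samples of Ppp1r3g.

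Ppp1r3c, also known as protein targeting to glycogen, binds the phosphatase together with enzymes of glycogen metabolism. Its level was 14.17 and 13.69 in the control samples, 15.43 and 15.09 in the STZ samples, and 13.70 and 14.19 in the STZ+MENS samples. The STZ samples were the highest and did not overlap with either of the other groups, while control and STZ+MENS samples lay in the same range. The group means were 13.93 ± 0.33 (SD, n = 2) in control and 15.26 ± 0.24 in STZ, and that of STZ+MENS was 13.95 ± 0.35. STZ exceeded control by 1.33 ± 0.25 (SE), which is 2.51-fold, with an adjusted p of 0.118. STZ+MENS minus STZ was -1.31 ± 0.25, a level 2.48-fold lower, with an adjusted p of 0.0651. STZ+MENS and control overlapped, with a difference of 0.02 ± 0.25 and a 95% interval from -0.59 to 0.63. In these bulk samples fewer cells of a type and less RNA per cell cannot be told apart, here and for the genes that follow.

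Ppp1r3g is a subunit of the same family, known in liver for its part in glycogen synthesis after a meal. Its level was 13.64 and 12.23 in control, 12.09 and 10.80 in STZ, and 11.78 and 11.18 in STZ+MENS. Both diabetic groups lay below both controls, but the gap between the nearest samples was only 0.14 for STZ and 0.45 for STZ+MENS. It was the most scattered member in each group, with means of 12.93 ± 1.00 (SD, n = 2) in control and 11.45 ± 0.91 in STZ, and that of STZ+MENS was 11.48 ± 0.42. STZ minus control was -1.49 ± 0.58, or 2.80-fold lower, with an adjusted p of 0.276. STZ+MENS minus control was -1.45 ± 0.58, or 2.74-fold lower, with an adjusted p of 0.267. The size rested on single samples: without control sample 1 these differences were -0.78 and -0.75, and without STZ sample 2 the first was -0.84. STZ+MENS and STZ samples overlapped, with a difference of 0.03 ± 0.58 whose 95% interval ran from -1.38 to 1.45. Ppp1r3c and Ppp1r3g were the least alike pair of members, with a root mean square difference of 1.25 over the 6 samples once each gene was centred on its mean.

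Gbe1, the glycogen branching enzyme, had a level of 15.19 and 15.12 in control, 15.78 and 15.66 in STZ, and 14.41 and 14.68 in STZ+MENS. It was the only member whose 3 groups were all apart from each other, with STZ highest, control between and STZ+MENS lowest. The means were 15.16 ± 0.04 (SD, n = 2) in control and 15.72 ± 0.09 in STZ, and that of STZ+MENS was 14.55 ± 0.19. STZ minus control was 0.56 ± 0.15, or 1.48-fold, with an adjusted p of 0.174. STZ+MENS minus STZ was -1.17 ± 0.15, or 2.26-fold lower, with an adjusted p of 0.0595. This was the member difference with the smallest p, at rank 61 of the 17742 genes. STZ+MENS minus control was -0.61 ± 0.15, or 1.53-fold lower, with an adjusted p of 0.142. The STZ+MENS samples of Ppp1r3c and Ugp2 overlapped with control, and those of Gbe1 lay below it.

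Ugp2, UDP-glucose pyrophosphorylase, had a level of 13.25 and 13.32 in control, 14.05 and 13.83 in STZ, and 13.01 and 13.60 in STZ+MENS. Both STZ samples were above all others, and the STZ+MENS samples lay on either side of the controls. The means were 13.29 ± 0.05 (SD, n = 2) in control and 13.94 ± 0.16 in STZ, and that of STZ+MENS was 13.31 ± 0.42. STZ minus control was 0.65 ± 0.22, or 1.57-fold, with an adjusted p of 0.227. STZ+MENS minus STZ was -0.63 ± 0.22, or 1.55-fold lower, with an adjusted p of 0.15. STZ+MENS and control differed by 0.02 ± 0.22, with a 95% interval from -0.52 to 0.56. The arrays of STZ+MENS sample 2 read intensities of 9100 and 16841 for Ugp2, 1.85-fold apart, and 5.01% of genes had a gap as large or larger there. Without that sample STZ+MENS minus STZ was -0.93 with an adjusted p of 0.0409, and without STZ+MENS sample 1 it was -0.34. Gbe1 and Ugp2 were the most alike pair of members, with a root mean square difference of 0.298, and Ppp1r3c differed from them by 0.365 and 0.359.

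Phka2 is the regulatory alpha subunit of phosphorylase kinase in liver. It was the only member read by 2 probes, and the brighter was used. By that probe the level was 12.57 and 12.59 in control, 12.32 and 12.69 in STZ, and 13.55 and 13.60 in STZ+MENS. Both STZ+MENS samples stood above all others, and control and STZ overlapped. The means were 12.58 ± 0.02 (SD, n = 2) in control and 12.50 ± 0.26 in STZ, and that of STZ+MENS was 13.57 ± 0.04. STZ+MENS minus STZ was 1.07 ± 0.17, or 2.10-fold, with an adjusted p of 0.0595. STZ+MENS minus control was 0.99 ± 0.17, or 1.99-fold, with an adjusted p of 0.113. STZ and control overlapped, with a difference of -0.08 ± 0.17 and a 95% interval from -0.48 to 0.33. The small spread between the STZ+MENS samples went with a wider gap between arrays, since the arrays of sample 2 lay 1.69-fold apart, a gap that 8.04% of genes matched or exceeded there.

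The dimmer Phka2 probe gave other values. It read 9.37 and 9.34 in control, 8.96 and 8.98 in STZ, and 9.30 and 8.96 in STZ+MENS, so that no STZ+MENS sample was above the controls. STZ+MENS minus STZ was 0.16 ± 0.16 with an adjusted p of 0.574. STZ+MENS minus control was -0.22 ± 0.16 with an adjusted p of 0.519, the opposite sign from the brighter probe. STZ minus control was -0.38 ± 0.16 with an adjusted p of 0.30. The higher Phka2 value in STZ+MENS was thus that of 1 probe, and the transcripts that the probes read were not tested.

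Pklr had a level of 13.83 and 14.05 in control, 13.73 and 14.05 in STZ, and 14.61 and 14.16 in STZ+MENS. Control and STZ lay in the same range, and both STZ+MENS samples were above them, the lower of the pair by only 0.11. The means were 13.94 ± 0.15 (SD, n = 2) in control and 13.89 ± 0.23 in STZ, and that of STZ+MENS was 14.39 ± 0.32. STZ+MENS was 1.41-fold above STZ, with an adjusted p of 0.211, and 0.45 ± 0.21, or 1.36-fold, above control, with an adjusted p of 0.333. The 95% interval of STZ minus control ran from -0.57 to 0.47. Without STZ+MENS sample 1 the difference from STZ was 0.27 and that from control 0.22, and without control sample 2 or STZ sample 1 the difference between STZ and control turned sign, at 0.06 and 0.11. Mlxipl, whose protein binds carbohydrate response elements such as that of Pklr, was at 16.39 and 16.42 in control, 15.88 and 15.80 in STZ, and 17.10 and 16.49 in STZ+MENS. The highest value of both genes was that of STZ+MENS sample 1, while the STZ samples were below both controls for Mlxipl and overlapped with them for Pklr. A link between these genes was not tested.

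**Figure D2:**
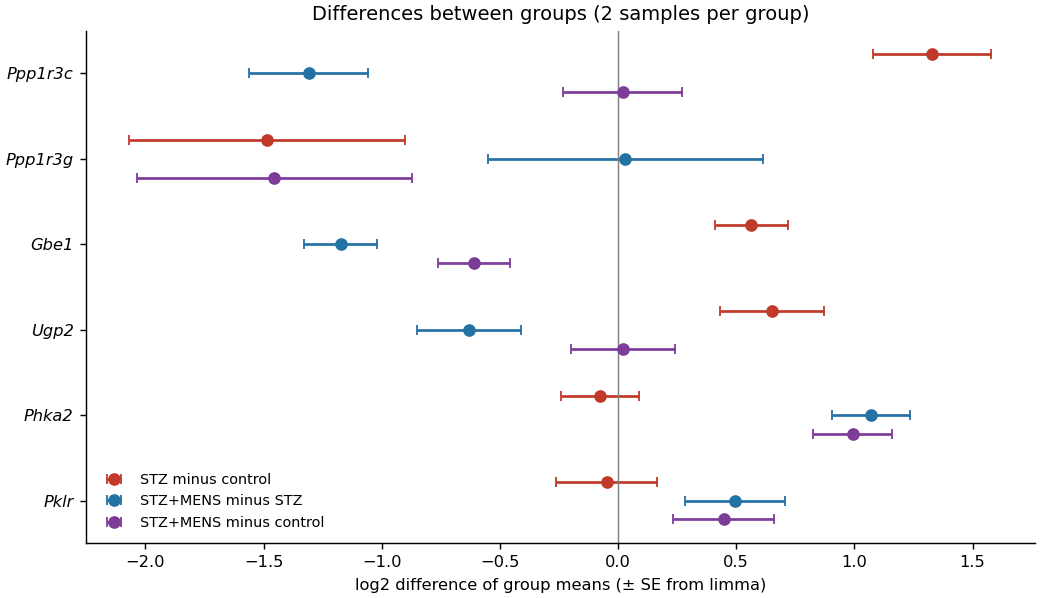
Differences between group means on the log2(intensity + 50) scale for the 6 members in the 3 comparisons, with bars of 1 standard error from the limma fit. Ppp1r3c, Gbe1 and Ugp2 lie above 0 for STZ minus control and below 0 for STZ+MENS minus STZ, whereas Ppp1r3g lies at -1.49 and -1.45 against control and at 0.03 between the diabetic groups.

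The members' counts are given beside those over all genes, as a description, since the members were chosen with earlier results known. For STZ minus control no member passed the adjusted threshold, which 0.00564% of all genes did, the single gene Top2b. At an unadjusted p under 0.05 in limma, 4 of the 6 members differed, against 17.0% of all genes. Of these, 3 were higher, against 8.48% of genes, and 1 was lower, against 8.49%. For 4 members the samples of these groups did not overlap, against 52.1% of all genes, with 3 higher (24.0% of genes) and 1 lower (28.2%). Without control sample 1 the difference was 1.56 for Ppp1r3c, -0.78 for Ppp1r3g, 0.59 for Gbe1 and 0.62 for Ugp2. Without STZ sample 1 it was 1.16, -2.13, 0.50 and 0.54 in the same order.

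Between STZ+MENS and STZ no member passed the adjusted threshold in limma, which 0% of all genes did. At an unadjusted p under 0.05, 4 members differed, against 25.4% of all genes, with 1 higher (12.6% of genes) and 3 lower (12.8%). The samples did not overlap for 5 members, against 57.9% of genes, with 2 higher (34.0%) and 3 lower (23.9%). Without STZ+MENS sample 2, 4 members passed the adjusted threshold, with Ppp1r3c at 0.0313, Gbe1 at 0.0212, Ugp2 at 0.0409 and Phka2 at 0.0415, and so did 1759 of all genes. That fit leaves STZ+MENS with a single sample, assumed to vary like the other groups.

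Between STZ+MENS and control no member passed the adjusted threshold, against 0.00564% of all genes, again Top2b. At an unadjusted p under 0.05, 3 members differed, against 18.0% of all genes, with 1 higher (8.82% of genes) and 2 lower (9.18%). The samples did not overlap for 4 members, against 48.6% of genes, with 2 higher (25.6%) and 2 lower (23.0%). The 3 comparisons share samples. The STZ samples enter the first with one sign and the second with the other, so the opposite signs of Ppp1r3c, Gbe1 and Ugp2 there are not separate observations.

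The wider glycogen list held 33 other genes, of which 24 were measured, and none of these passed the adjusted threshold in any comparison. The others, among them glycogen synthase (Gys2) and liver phosphorylase (Pygl), were not analysed here. For STZ minus control 3 were higher and 3 lower at an unadjusted p under 0.05, a threshold that 17.0% of all genes met, and the median difference was 0.27, against -0.02 over all genes. G6pc, which frees glucose from glucose 6-phosphate, had the smallest p of the list, with an adjusted p of 0.154 and levels of 14.18 and 13.22 in control and 15.68 and 14.86 in STZ. Gaa, the lysosomal glucosidase that digests glycogen, differed by -0.58 ± 0.17. Pgm2l1, of the phosphoglucomutase family, differed by 0.44 ± 0.15, and Phka1, the muscle alpha subunit of phosphorylase kinase, by -0.56 ± 0.19. Phkg2 differed by -0.38 ± 0.15, Phkb by 0.26 ± 0.24 and Ppp1r3b by 0.74 ± 0.46. The list thus held genes on both sides of 0, and the synthesis genes Gbe1 and Ugp2 were on the upper side.

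Of the 24, 3 were higher and 7 lower in STZ+MENS than in STZ at an unadjusted p under 0.05, which 25.4% of all genes met, with a median of -0.04 against 0.06 over all genes. G6pc had the largest difference of the list, at -2.25 ± 0.38, or 4.74-fold lower, with an adjusted p of 0.0595. Its level was 15.68 and 14.86 in STZ and 12.96 and 13.08 in STZ+MENS, with no overlap. Phkg2, the catalytic subunit of phosphorylase kinase in liver, differed by 0.90 ± 0.15 with an adjusted p of 0.0595, in the direction of the brighter Phka2 probe. Its level was 13.96 and 14.13 in control, 13.58 and 13.76 in STZ, and 14.65 and 14.49 in STZ+MENS, with no overlap between any groups. Phkb, the beta subunit of the same enzyme, had the opposite sign, at -0.87 ± 0.24 with an adjusted p of 0.104. Its level was 11.85 and 11.54 in STZ and 10.56 and 11.09 in STZ+MENS. The subunits of this enzyme therefore did not share a direction. Pgm1, of the phosphoglucomutase family, differed by -0.71 ± 0.18, and Pgm2l1 by -0.60 ± 0.15. The far brighter Pgm2 of that family, named after its values were seen, differed by 0.15 ± 0.13. Its level was 16.19 and 16.28 in STZ and 16.39 and 16.38 in STZ+MENS, against 9.73 and 9.63, and 8.78 and 9.16, for Pgm1. Ppp1r3b, the glycogen-targeting subunit best known from liver, differed by -1.17 ± 0.46 with an adjusted p of 0.179. Its level was 13.92 and 13.73 in control, 14.65 and 14.48 in STZ, and 12.64 and 14.16 in STZ+MENS. As for Ppp1r3c, the STZ samples of Ppp1r3b were the highest, but its STZ+MENS samples lay far apart, on either side of the controls.

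In STZ+MENS against control 4 of the 24 were higher and 3 lower at an unadjusted p under 0.05, which 18.0% of all genes met, with a median of -0.02 against 0.02 over all genes. Slc37a4, which carries glucose 6-phosphate into the endoplasmic reticulum, differed by 0.63 ± 0.14 with an adjusted p of 0.128. Pgm2 differed by 0.48 ± 0.13, Phkg2 by 0.52 ± 0.15 and Gaa by -0.56 ± 0.17. Phkb differed by -0.61 ± 0.24 and Ppp1r3b by -0.43 ± 0.46. Gbe1 and Phkb were below control in both STZ+MENS samples, and Phka2 (brighter probe) and Phkg2 above it.

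**Figure D3:**
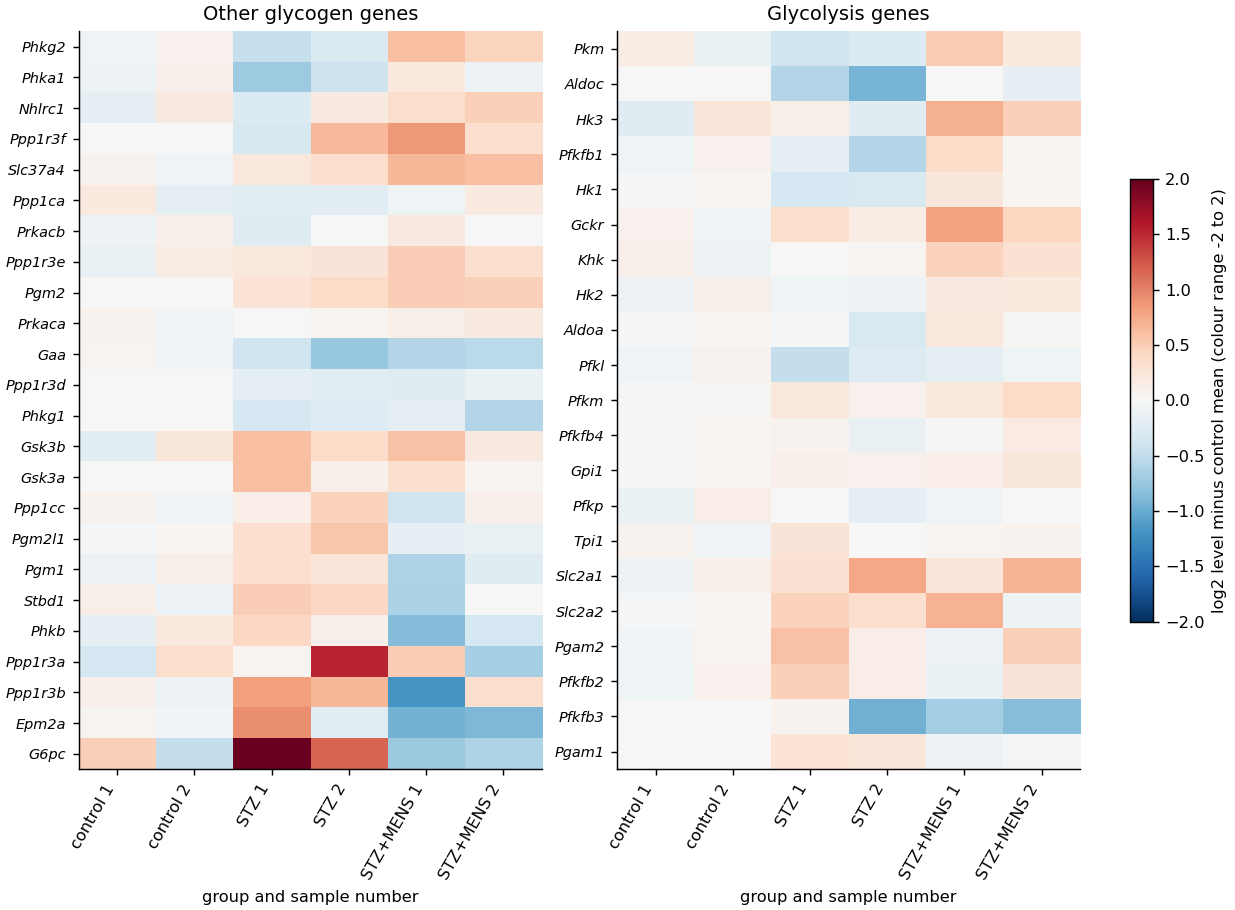
Level of each measured gene of the glycogen list (left, members not included) and the glycolysis list (right) in each of the 6 samples, as the log2 difference from the mean of the control samples, with red above and blue below it and genes ordered by STZ+MENS minus STZ. Phkg2 is blue in both STZ samples and red in both STZ+MENS samples, Phkb is blue in both STZ+MENS samples, and Ppp1r3b is red in both STZ samples and blue in STZ+MENS sample 1 only.

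Around Pklr, 21 of 30 listed genes of glycolysis and sugar entry were measured, and none passed the adjusted threshold. The others were not analysed here. For STZ minus control none was higher and 2 were lower at an unadjusted p under 0.05, against 17.0% of all genes. They were Aldoc, an aldolase best known from brain, at -0.75 ± 0.17, and Pfkl, the liver phosphofructokinase, at -0.37 ± 0.15. The Pfkl probe was dim, below the median intensity of the arrays, with levels of 8.33 and 8.48 in control and 7.92 and 8.14 in STZ. The next in the list by p, Hk1 at -0.33 ± 0.14 and the glucose transporter Slc2a1 at 0.54 ± 0.23, were not under the unadjusted 0.05. In STZ+MENS against STZ 5 were higher and 1 lower, against 25.4% of all genes, with a median of 0.15 against 0.06 over all genes. Aldoc differed by 0.68 ± 0.17, Pkm, the pyruvate kinase of most other tissues, by 0.68 ± 0.18, and Hk1, a hexokinase, by 0.47 ± 0.14. Pfkfb1, the liver enzyme that sets the level of the phosphofructokinase activator, differed by 0.61 ± 0.20. Against control, STZ+MENS had 3 higher and none lower, against 18.0% of all genes, with a median of 0.18 against 0.02 over all genes. The 3 were Gckr at 0.62 ± 0.18, the hexokinase Hk3 at 0.59 ± 0.22 and Khk, which phosphorylates fructose, at 0.39 ± 0.15. Pfkfb3, at -0.77 ± 0.32, and Pkm, at 0.35 ± 0.18, were not under the unadjusted 0.05. Pklr and Pkm thus both had higher means in STZ+MENS than in STZ, and neither passed the adjusted threshold.

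Genes of neighbouring regulation were read the same way, and none passed the adjusted threshold. The shares of all genes under the unadjusted 0.05 were again 17.0% for STZ minus control, 25.4% for STZ+MENS minus STZ and 18.0% for STZ+MENS minus control. Of 11 glucose-responsive genes 2 were higher and 2 lower in STZ than in control at an unadjusted p under 0.05, with Klf10 at 1.97 ± 0.32 and Txnip, induced by glucose in many cells, at 0.84 ± 0.14. The lower ones were Thrsp, a gene of fatty acid synthesis, at -2.12 ± 0.35, and Mlxipl at -0.56 ± 0.22, named after their values were seen. In STZ+MENS against STZ 3 were higher and 2 lower, with Thrsp at 1.74 ± 0.35 and Mlxipl at 0.95 ± 0.22. Against control, STZ+MENS had 2 higher, among them Tkfc at 1.08 ± 0.24, and 1 lower, Mlx, the partner of the Mlxipl protein, at -0.64 ± 0.14. Of 11 genes of fasting and insulin action 1 was higher in STZ than in control, Cpt1a, the entry enzyme of mitochondrial fatty acid oxidation, at 0.63 ± 0.16. Against STZ, STZ+MENS had 2 higher, the glucagon receptor Gcgr at 0.53 ± 0.13 and Fgf21 at 0.52 ± 0.20, and for STZ+MENS minus control 2 were higher, Gcgr and Cpt1a. No gene of that list was lower at this threshold in any of the 3 comparisons.

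Clock genes were read because liver glycogen genes are known to follow the time of day and feeding. Of 15 measured, 3 were higher and 2 lower in STZ than in control at an unadjusted p under 0.05, against 17.0% of all genes, with Nr1d2 at 0.84 ± 0.20 and Ciart at 0.93 ± 0.29. For STZ+MENS minus STZ 3 were higher and 3 lower, against 25.4% of all genes, with Clock at -0.73 ± 0.19 and Dbp at 0.58 ± 0.16. For STZ+MENS minus control 2 were higher, Per1 at 1.11 ± 0.19 and Ciart at 1.48 ± 0.29, and 1 was lower, against 18.0% of all genes. None passed the adjusted threshold, and the part of these genes' differences in those of the members was not tested.

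The genes with the nearest profile were found for the 4 members whose group means spanned at least 1 log2 unit, by the root mean square difference over the 6 samples after each gene was centred on its mean. Nearest to Ppp1r3c were Anxa3, Ppl and Camk2n2, at 0.108 to 0.131. Nearest to Gbe1 were Itm2b, Ubl3 and Dnajc3, at 0.0612 to 0.0645, and nearest to Phka2 were Iffo1, Echdc2 and Atrip, at 0.0728 to 0.0920. Ppp1r3g had more distant neighbours, with Plcz1, Hdgfl1 and Ankdd1b at 0.255 to 0.348. These genes were searched out over the whole array for their likeness, which is a description of these 6 samples.

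**Figure D4:**
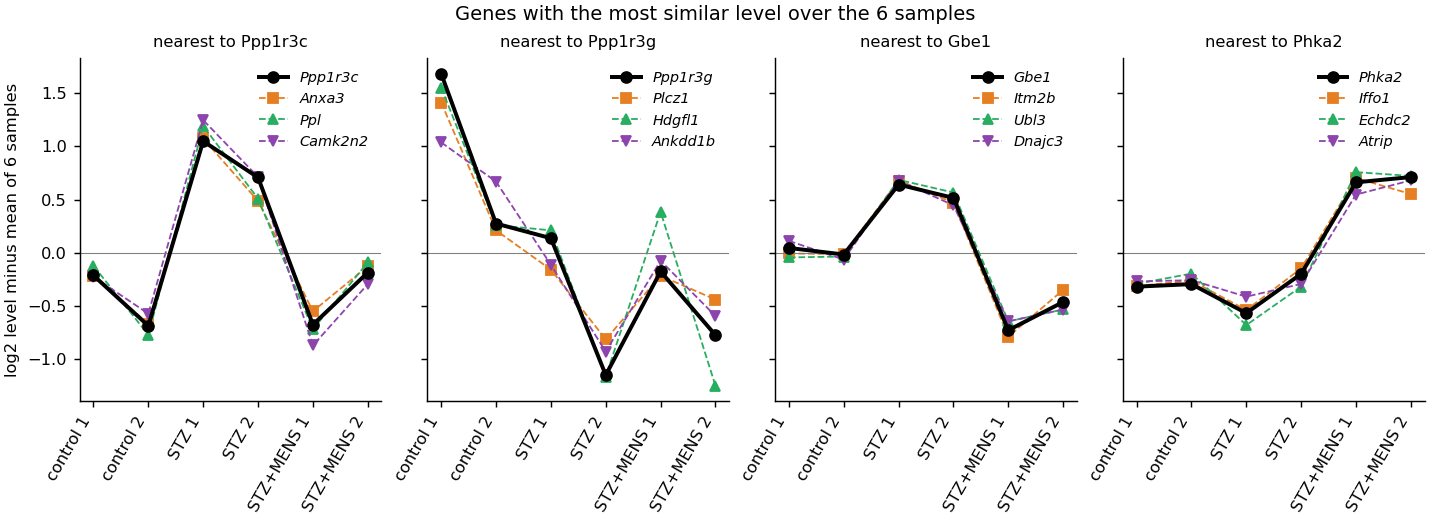
Level minus the mean of the 6 samples, on the log2 scale, for Ppp1r3c, Ppp1r3g, Gbe1 and Phka2 (black) and the 3 genes nearest to each (coloured dashed lines), with samples along the horizontal axis. The lines of Gbe1 and Phka2 nearly coincide with those of their neighbours, at 0.0612 to 0.0920, and those of Ppp1r3g lie farther apart, at 0.255 to 0.348.

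Markers of cell types differed between the groups in part, and their part in the members' differences was not tested. The summed intensity of the 10 hepatocyte markers was 3318091 to 3421749 in the controls, 2956579 to 3129859 in the STZ samples and 2864751 to 2993738 in the STZ+MENS samples. At an unadjusted p under 0.05 none was higher and 3 were lower in STZ+MENS than in STZ, against 25.4% of all genes. They were Apob, Cps1 and Tat, named after their values were seen, at -2.12 ± 0.51, -1.27 ± 0.48 and -1.17 ± 0.23. The other hepatocyte markers lay between -0.13 for Alb and 0.28 for Apoa1, and all of them but Alb were above 0. The median of the 10 was 0.06, as over all genes. The sum of 8 of 9 cholangiocyte markers was 16742 to 17442 in the controls, 20852 to 26347 in the STZ samples and 18185 to 23515 in the STZ+MENS samples, so that both diabetic groups lay above control. That sum was mostly Spp1, at 0.36 ± 0.29 in STZ and 0.18 ± 0.29 in STZ+MENS against control. At an unadjusted p under 0.05, 3 of the 8 were higher and none lower in STZ than in control, against 17.0% of all genes. These were Krt19 at 1.25 ± 0.24, Tspan8 at 1.47 ± 0.28 and Anxa13 at 1.69 ± 0.34. In STZ+MENS against control they were at 0.92 ± 0.24, 0.59 ± 0.28 and 0.88 ± 0.34. Epcam, at 0.07 ± 0.15 and -0.06 ± 0.15, and Sox9, at 0.03 ± 0.26 and -0.15 ± 0.26, did not follow the sum. All cholangiocyte genes given here were named after their values were seen. The sum of 9 Kupffer cell markers was 67268 to 77769 in control, 68276 to 70818 in STZ and 69596 to 107608 in STZ+MENS. That of 7 stellate cell markers was 133072 to 163490, 140959 to 146630 and 126392 to 188096. Pklr is also the enzyme of red cells, and the 2 of 8 erythroid markers measured summed to 79641 to 95699 in the controls, 32621 to 55363 in the STZ samples and 9330 to 104836 in the STZ+MENS samples. That sum was mostly Alas2, and the STZ+MENS samples lay far apart in it. Alas2 was at 16.65 in STZ+MENS sample 1 and 13.11 in sample 2, and Slc4a1 at 10.11 and 7.81. Sample 1 was also the higher of the pair for Pklr. In control and STZ, which overlapped for Pklr, Alas2 was at 16.25 and 16.53, and at 14.99 and 15.75. The part of red cells in the Pklr values was not tested. The sum of 4 of 6 markers of pancreatic acinar cells was 40563 to 40848 in the controls and lower in both diabetic groups, at 17864 to 22113 in STZ and 14870 to 19852 in STZ+MENS. The other markers of that list did not all follow its sum, which was mostly that of Cela1, at -1.13 ± 0.22 in STZ and -1.42 ± 0.22 in STZ+MENS against control. Cela2a differed by -0.46 ± 0.16 in both, Cpa1 by -0.03 ± 0.17 and 0.18 ± 0.17, and Pnlip by 0.57 ± 0.21 and 0.17 ± 0.21. The sum of 7 of 8 endothelial markers was 67228 to 79868 in the controls, and it overlapped with that of STZ, 61296 to 68690, and of STZ+MENS, 70741 to 87301. No marker of these lists was at or below 0 on every array of a group.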

How the data were processed

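The values analysed were the intensities the authors deposited for each array, already background-subtracted and brought to nearly the same distribution, as the values show. The method is not given in the sources used here. The submitters' processing notes name limma 3.30.7, with no role. Of 26423 probes 20377 had a single gene symbol, of which 18213 were current RefSeq symbols and 2126 older ones, and 6046 were left unnamed. The brightest probe stood for each of 17742 genes, values below 0 were set to 0, 50 was added and log2 taken. Both arrays of a sample were averaged, so that n is 2 samples per group. All 3 groups were fitted with limma 3.58.1 in R 4.3.3 (lmFit and eBayes, 3 residual degrees of freedom) with Benjamini-Hochberg adjustment, in a script tested on simulated data. No exact permutation test was run, its smallest p with groups of 2 being 0.333. Named were all members and, by smallest p in each comparison, up to 4 genes of the glycogen and glycolysis lists and up to 2 of the other lists, plus Phkb, Phkg2, Ppp1r3b and Pkm. Genes named outside this rule are marked where they stand, and Mlxipl is given beside Pklr for its role. The members and lists were chosen with earlier results of these data known.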

Additional observations from a re-analysis of the deposited data

How the results depend on the processing

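With 2 samples per group, several results rested on single samples. Of 345 member values under the alternatives, 320 kept their direction and side of the adjusted threshold, 11 passed it and 14 turned sign, and the cause was not tested. Fits that alter only the spread, such as the random block, cannot turn a sign, and many of the 320 come from such fits. Ppp1r3c, Gbe1 and Ugp2 kept their direction for STZ minus control (1.09 to 1.56, 0.46 to 0.66 and 0.54 to 0.77) and STZ+MENS minus STZ (-1.55 to -1.06, -1.31 to -1.04 and -0.93 to -0.34) in 19 alternatives.

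With all 12 arrays fitted and the sample as a random block, adjusted p was 0.00365 for Ppp1r3c and 0.0348 for Gbe1 in STZ minus control. It was 0.00251 for Ppp1r3c, 0.00103 for Gbe1 and 0.0129 for Phka2 in STZ+MENS minus STZ, and 0.0260 for Gbe1 and 0.0307 for Phka2 in STZ+MENS minus control. That fit counts arrays toward its residual degrees of freedom, and its smaller p-values rest on 2 samples per group, not further replicates. The other 4 values that passed were those without STZ+MENS sample 2 given above.

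The signs that turned were as follows, with the range over fits leaving out a sample. Phka2 in STZ minus control was 0.11 without STZ sample 1 (-0.26 to 0.11), and in STZ+MENS minus control -0.22 by the other probe. Pklr in STZ minus control was 0.06 without control sample 2 and 0.11 without STZ sample 1 (-0.21 to 0.11). Ppp1r3g in STZ+MENS minus STZ was -0.09 with the first arrays, -0.27 without STZ+MENS sample 1 and -0.61 without STZ sample 2 (-0.61 to 0.67). Ppp1r3c in STZ+MENS minus control was -0.0039 with the second arrays, -0.22 without control sample 2 and -0.23 without STZ+MENS sample 2 (-0.23 to 0.26). Ugp2 in STZ+MENS minus control was -0.11 with the first arrays, -0.02 without control sample 1, -0.27 without STZ+MENS sample 2 (-0.27 to 0.31) and -0.20 without the second array of that sample. This last setting and the other Phka2 probe were chosen after seeing the data.

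Genes past the adjusted threshold for STZ minus control were 1 as reported, 0 with an offset of 200 or the second arrays and 4 with the first arrays. They were 1204 with the random block and 181 with only the compared groups fitted. Leaving out a sample of the group not compared gives this last fit again. For STZ+MENS minus STZ they were 0 as reported, 30 with the second arrays, 3079 with the random block, and 0 to 1759 leaving out a sample, the highest without STZ+MENS sample 2. For STZ+MENS minus control they were 1 as reported, 0 with an offset of 200 or the second arrays, 3 with the first arrays, 1336 with the random block, 2 with only the compared groups or without the second array of STZ+MENS sample 2, and 0 to 12 leaving out a sample. At an unadjusted p under 0.05 the counts leaving out a sample were 1812 to 3506, 2389 to 5167 and 1803 to 3719 in the same order. Members under it for STZ minus control were 2 with the first arrays, where 2470 of all genes were under it. Counts of the glycogen list over all settings were 2 to 7, 5 to 10 and 3 to 9, and those of the glycolysis list 1 to 5, 3 to 7 and 0 to 5.

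The labels do not say that the sample numbers pair the groups. Deviations of same-numbered samples correlated at 0.00496, -0.0306 and -0.0702 over all genes, which cannot show whether any samples were paired. With the number as a replicate block the adjusted counts were 1, 0 and 1, the unadjusted counts 2734, 4020 and 2867, and the members under the unadjusted 0.05 were 4, 4 and 3.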
